A study of Mus musculus with 6 samples.

Results

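Transcripts of the enzymes that make serine and pass its carbon to folate were measured by RNA sequencing in mRPMaxKO, a cell line from a mouse lung tumour lacking Max (RPMax-/-, strain background 129/SvJ; C57BL/6). The members were picked by gene symbol and by role in the pathway. They are the 3 serine synthesis genes Phgdh, Psat1 and Psph, the 3 cytosolic folate genes Shmt1, Mthfd1 and Aldh1l1, and the 4 mitochondrial folate genes Shmt2, Mthfd1l, Mthfd2 and Aldh1l2. All 10 were found among the 24391 annotated genes. The choice of these genes was made with earlier results of these data known. The libraries formed 2 groups of 3, MAX restored and control. All came from a polyclonal, puromycin-selected population carrying a doxycycline-inducible lentiviral vector, kept under passage 20, and the treatment text, the same for both groups, gives 4 days of doxycycline. The labels do not say what vector the control cells carried, whether they received doxycycline, or whether replicate libraries derive from cultures grown apart. The p-values therefore measure only the spread between these libraries, which may be technical. The comparison asks how this pathway's transcripts differ when MAX is put back into cells without it.

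MAX is the partner through which MYC proteins bind DNA. Cells make serine from the glycolytic intermediate 3-phosphoglycerate through PHGDH, PSAT1 and PSPH in turn. The SHMT enzymes split serine into glycine and a carbon unit carried on tetrahydrofolate, SHMT1 in the cytosol and SHMT2 in mitochondria. MTHFD2 and MTHFD1L carry the mitochondrial unit on to formate, and the trifunctional MTHFD1 handles it in the cytosol for purine and thymidylate synthesis. ALDH1L1 in the cytosol and ALDH1L2 in mitochondria oxidise 10-formyltetrahydrofolate to carbon dioxide. Serine synthesis and mitochondrial folate genes are known targets of the stress factor ATF4 and of MYC proteins, and the pathway is often high in fast-growing tumour cells.

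The MAX restored libraries held between 10253303 and 11925909 counts, and the control libraries between 10046899 and 10425210. Max itself had 15979, 14933 and 13369 counts in the MAX restored libraries, against 639, 691 and 620 in the controls. Rb1 averaged 290 ± 1.74 CPM (counts scaled to a common library total) in MAX restored libraries and 322 ± 18.9 in controls, and Trp53 averaged 11.4 ± 1.15 CPM in MAX restored libraries and 12.5 ± 1.29 CPM in controls (SD, n = 3 each). Counts summed over a gene do not show whether a deleted exon was transcribed. Of 8 markers of neuroendocrine cells, the type seen in small cell lung cancer, 7 averaged at least 1 CPM, and Neurod1 had no count. Their summed level lay between 8305 and 8603 CPM in MAX restored libraries and between 8420 and 8663 CPM in controls. Of the immune, endothelial and fibroblast markers, 1 in each list of 4 reached 1 CPM, namely Cd68, Vwf and Pdgfrb. Summed levels were 2.41 to 3.22 CPM in MAX restored libraries and 1.49 to 2.76 CPM in controls for the immune list. For the endothelial list, which Vwf dominated, they were 418 to 453 CPM in MAX restored libraries and 528 to 581 CPM in controls. For the fibroblast list they were 1.34 to 2.74 CPM in MAX restored libraries and 0.690 to 1.49 CPM in controls. Of 6 markers of other lung epithelium, 4 reached 1 CPM, and their sum was 47.6 to 53.5 CPM in MAX restored libraries and 48.0 to 50.1 CPM in controls. The part of these marker levels in the results on the enzymes was not tested. Control 1 stood apart from the other controls, with a chi-square per degree of freedom of 8.91 and 10.2 against them, where the other pairs within a group lay between 1.24 and 1.51. Reads of the rRNA precursor gene Rn45s made up 0.996% of the counts of control 1 and between 0.109% and 0.187% of those of the other 5 libraries. Rn45s is among the genes summed in the chi-square, and how much of it this gene accounts for was not tested. Relative to the mean of controls 2 and 3 on the log2 scale, the 9 enzymes with over 100 counts in every library lay between -0.12 and 0.15 in control 1. The 5th to 95th percentiles of all tested genes were -0.325 to 0.3. Aldh1l1, with few counts, lay at 0.954.

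With MAX restored, 9 of the 10 enzyme transcripts fell and 1, Aldh1l1, was higher, at a very low level. By the same test 32.3% of 12664 tested genes were called lower and 31.2% higher (edgeR's quasi-likelihood test, Benjamini-Hochberg adjustment over all tested genes, adjusted p under 0.05). Psat1, Psph, Shmt1, Shmt2, Mthfd2 and Aldh1l2 fell by at least 1.5-fold, 6 of 10 members, where 8.1% of tested genes did so. The median log2 fold change of the 10 was -0.77, and that of all tested genes was 0.00 at 2 decimals. The groups did not overlap for any of the 10, which was also true of 67.1% of tested genes. Together the 10 transcripts took 1066, 1115 and 1060 CPM in MAX restored libraries 1, 2 and 3, against 1994, 2091 and 1973 CPM in controls 1, 2 and 3. Without control 1 the counts were also 9 lower and 1 higher. In these bulk libraries fewer cells with a transcript and less of it per cell cannot be told apart. With no added standard, every value is a share of the RNA sequenced.

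**Figure D1:**
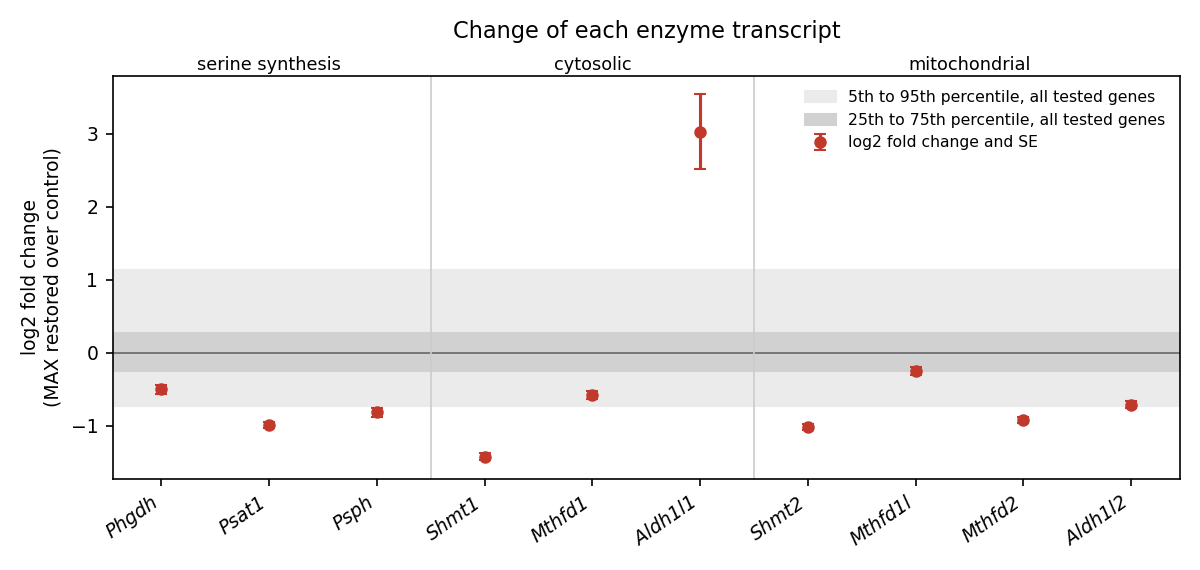
Log2 fold change of each enzyme transcript, MAX restored over control, with its standard error, grouped as serine synthesis, cytosolic and mitochondrial genes. The grey bands span the 25th to 75th (-0.25 to 0.27) and the 5th to 95th percentiles (-0.74 to 1.13) of all 12664 tested genes. Psat1, Psph, Shmt1, Shmt2 and Mthfd2 lie below the outer band, and Aldh1l1 lies above it.

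The regions around the transcript starts were read for sequence because most members moved together and MAX-containing dimers bind E-boxes. The RefSeq table (GRCm38.p6) holds 10 windows for 9 of the members, all but Aldh1l2, each from 250 bases before to 50 after a transcript start. Neither the E-box CACGTG nor TGATGNAA, a core of the ATF4 response element, was found on either strand in any of them. Of all 32851 windows, 7.15% hold CACGTG and 3.97% hold TGATGNAA. The E-box variant CACGCG was searched only after the first motifs gave no match. It was found in 4 of the 10 member windows, against 9.27% of all windows. These 4 belong to 3 members, Psat1 with 2 windows, Shmt1 and Shmt2. Taken by gene, 3 of the 9 members with a window hold CACGCG. Of the tested genes with a window 1999 hold it and 7672 do not, a larger share than that of all windows. Psat1, Shmt1 and Shmt2 also have the lowest log2 fold changes of the 10. The motif was chosen with earlier results known, and a link between the match and the falls was not tested. The matches stand in capitals, CACGCG or its reverse complement CGCGTG, each read 5′ to 3′ along the gene's own strand, which is minus for all 3.
Psat1, first start, chr19:15925190-15925219: aaggcacctcgcCACGCGggtggctggtgc
Psat1, second start, chr19:15924651-15924680: ctctgcggctccCGCGTGcacaggcgagcg
Shmt1, chr11:60811339-60811368: gcgggcgaatcgCGCGTGggcagctggggg
Shmt2, chr10:127522395-127522418: aattttctcgcgCACGCGttctaa
Counted from the transcript start, the matches begin at positions -148 and -46 for Psat1, at -91 for Shmt1 and at 39, within the transcript, for Shmt2. A match is a description of letters, not a shown binding site. Among tested genes with a window, 35.7% of the 1999 holding CACGCG were called lower (median log2 fold change -0.04), against 31.9% of the 7672 without it (median 0.00 to 2 decimals). For CACGTG, which no member window holds, 41.3% of 1150 genes were called lower, against 31.5% of 8521 without it.

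The 250 bases before the starts of the cytosolic and mitochondrial serine hydroxymethyltransferase genes are set side by side because both enzymes catalyse the same reaction, each in its own arm. They hold 13 CG dinucleotides in Shmt1 and 7 in Shmt2. Capitals mark the CACGCG match, present upstream of Shmt1 and not of Shmt2.
Shmt1, GRCm38, minus strand, chr11:60811266-60811515: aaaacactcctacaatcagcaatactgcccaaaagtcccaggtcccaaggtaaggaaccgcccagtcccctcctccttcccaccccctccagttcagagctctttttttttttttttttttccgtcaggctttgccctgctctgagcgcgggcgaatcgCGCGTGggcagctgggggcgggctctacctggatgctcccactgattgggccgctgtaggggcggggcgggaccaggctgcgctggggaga
Shmt2, GRCm38, minus strand, chr10:127522445-127522694: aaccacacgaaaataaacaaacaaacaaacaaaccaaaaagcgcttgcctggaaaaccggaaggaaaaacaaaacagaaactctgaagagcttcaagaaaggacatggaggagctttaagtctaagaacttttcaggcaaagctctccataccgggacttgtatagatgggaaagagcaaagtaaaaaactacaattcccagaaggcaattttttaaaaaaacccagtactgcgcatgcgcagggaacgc

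All 3 serine synthesis genes fell. Psat1, the aminotransferase of the middle step, lies on chromosome 19 (mm9, 15979613 to 15999549, minus strand). It had 231, 242 and 227 CPM in MAX restored libraries 1, 2 and 3, against 466, 480 and 448 CPM in controls 1, 2 and 3. Every MAX restored value was thus far below every control value, and the log2 fold change was -0.99 (SE 0.04, adjusted p = 3.14e-14, edgeR). Phgdh encodes the dehydrogenase that opens the pathway (chromosome 3, 98117094 to 98143892, minus strand). It had 33.9, 36.9 and 36.0 CPM in MAX restored libraries, against 50.2, 52.3 and 48.9 CPM in controls, a smaller fall of 1.42-fold (log2 -0.51, SE 0.06, adjusted p = 4.64e-07, edgeR). Psph, the phosphatase of the last step (chromosome 5, 130271434 to 130293129, minus strand), had 29.6, 28.5 and 29.2 CPM in MAX restored libraries, against 55.1, 50.8 and 48.2 CPM in controls. That is a fall of 1.76-fold (log2 -0.82, SE 0.07, adjusted p = 1.49e-09, edgeR), with the highest control value in control 1.

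Relative to Psat1, Phgdh was higher in every MAX restored library than in any control. The log2 ratio of Phgdh to Psat1, in counts per kilobase within a library, was -2.30 ± 0.056 with MAX restored and -2.79 ± 0.009 in controls (SD, n = 3 each). The difference of 0.49 gave p = 0.1 in a two-sided exact permutation test, the smallest p that 3 against 3 libraries allow, and 0.117 adjusted over the 7 pairs compared. The ratio of Psph to Psat1 overlapped between the groups (-2.31 ± 0.071 with MAX restored, -2.48 ± 0.086 in controls, difference 0.17, exact permutation p = 0.2). Both ratios were chosen after the fold changes had been seen.

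In the cytosolic arm Shmt1 fell furthest of all members. It lies on chromosome 11 (mm9, 60602399 to 60624767, minus strand). Shmt1 had 61.2, 61.1 and 61.3 CPM in MAX restored libraries 1, 2 and 3, against 164, 165 and 166 CPM in controls 1, 2 and 3. The replicates lay close together, with SDs of 0.0830 CPM with MAX restored and 0.717 CPM in controls. These SDs are below the counting error of counts of this size, so they do not measure precision. The fall was 2.69-fold (log2 -1.43, SE 0.05, adjusted p = 1.97e-15, edgeR). Of all tested genes 1.04% had a lower log2 fold change. Mthfd1, the cytosolic trifunctional enzyme on chromosome 12 (77356219 to 77420807, plus strand), had 93.6, 84.9 and 88.6 CPM in MAX restored libraries, against 126, 143 and 131 CPM in controls. The groups did not overlap, and its fall (log2 -0.58, SE 0.05, adjusted p = 1.69e-08, edgeR) lay just short of 1.5-fold.

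Aldh1l1 was the single member that was higher. It is the cytosolic 10-formyltetrahydrofolate dehydrogenase gene, best known as an astrocyte marker, on chromosome 6 (90500842 to 90549165, plus strand). The libraries with MAX restored held 17, 24 and 15 counts, against 4, 2 and 0 in controls 1, 2 and 3. It passed the filter on low counts through the MAX restored libraries alone, so its call was bound to be a difference. The 56 counts against 6 gave a ratio of 8.59 after scaling, with an exact binomial 95% interval of 3.71 to 24.4 that covers counting error only. The fitted log2 fold change was 3.03 (SE 0.51, adjusted p = 3.72e-05, edgeR), and it was 3.95 without control 1, which held 4 of the 6 control counts. Its level with MAX restored, 0.544 ± 0.130 CPM per kilobase (SD, n = 3), was the lowest of the 10. The 3 tested neighbours on each side on chromosome 6 had log2 fold changes from -0.67 to 0.66, so none moved as far.

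The 4 mitochondrial genes all fell, by amounts that differed widely. Shmt2 lies on chromosome 10 (mm9, 126954179 to 126959500, minus strand). It had 202, 212 and 202 CPM in MAX restored libraries 1, 2 and 3, against 416, 432 and 400 CPM in controls 1, 2 and 3, a fall of 2.03-fold (log2 -1.02, SE 0.04, adjusted p = 3.11e-14, edgeR). Of its 2305 exon bases 32 overlap an exon of Ndufa4l2, the only such overlap among the members, and reads in them may be missing from both counts. Mthfd2, the mitochondrial dehydrogenase and cyclohydrolase gene on chromosome 6 (83255698 to 83267598, minus strand), is low in most adult tissues and high in many tumours. It had 241, 257 and 238 CPM in MAX restored libraries, against 455, 487 and 457 CPM in controls (log2 -0.93, SE 0.04, adjusted p = 1.57e-13, edgeR). The groups lay far apart, with a fall of 1.90-fold.

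Aldh1l2, the mitochondrial counterpart of Aldh1l1 (chromosome 10, 82950192 to 82996885, minus strand), had 124, 139 and 126 CPM in MAX restored libraries, against 201, 221 and 214 CPM in controls. It fell 1.64-fold (log2 -0.71, SE 0.05, adjusted p = 4.58e-10, edgeR). Mthfd1l, the formate synthetase of mitochondria (chromosome 10, 6179460 to 6373466, minus strand), changed least of the members. It had 49.2, 51.3 and 51.0 CPM in MAX restored libraries, against 61.2, 59.3 and 59.9 CPM in controls. The groups were still apart, but the fall was 1.19-fold (log2 -0.25, SE 0.05, adjusted p = 3.03e-04, edgeR), and 25.1% of tested genes had a lower log2 fold change.

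**Figure D2:**
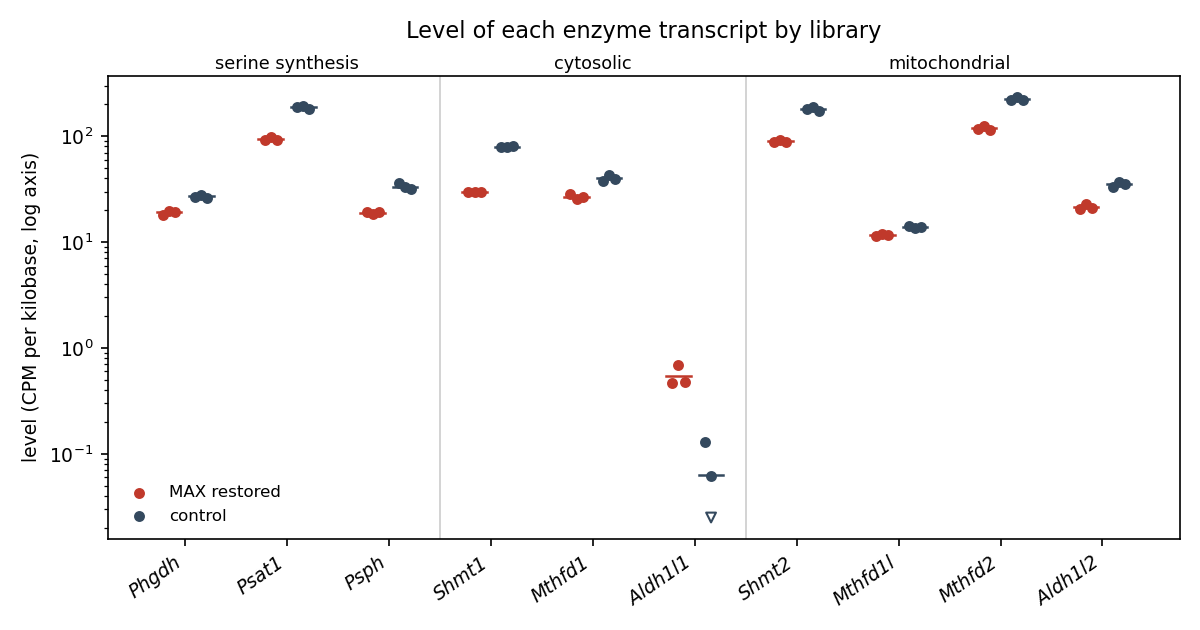
Level of each enzyme transcript in every library, in CPM per kilobase of exon on a log axis. Points are libraries, bars are group means, and MAX restored libraries stand left of controls. The open triangle marks the control library with no Aldh1l1 count, which has no place on a log axis. In 9 of 10 genes the MAX restored points lie below the control points.

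Per kilobase of exon, the order of levels put Mthfd2 first in both groups, at 119 ± 5.06 CPM per kilobase with MAX restored and 225 ± 8.69 in controls (SD, n = 3 each). Psat1 (93.7 ± 3.14 with MAX restored, 187 ± 6.50 in controls) and Shmt2 (89.0 ± 2.43 with MAX restored, 180 ± 6.84 in controls) followed, and their ranges overlapped in both groups. Shmt1 came next, at 29.6 ± 0.040 with MAX restored and 79.8 ± 0.347 in controls, then Mthfd1 at 26.8 ± 1.31 with MAX restored and 40.1 ± 2.59 in controls. Aldh1l2 followed at 21.4 ± 1.34 with MAX restored and 35.2 ± 1.73 in controls. Phgdh (19.0 ± 0.837) and Psph (18.9 ± 0.342) overlapped with MAX restored, whereas in controls Psph (33.4 ± 2.24) stood above Phgdh (27.0 ± 0.894) without overlap, and Psph overlapped with Aldh1l2. Mthfd1l had 11.7 ± 0.256 with MAX restored and 13.9 ± 0.224 in controls, above Aldh1l1 alone. Low levels of a gene with near-identical copies elsewhere may be understated, since reads that map to several places were not counted.

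Summed over their members, the cytosolic and mitochondrial arms fell by similar factors. The sums weigh abundant genes most. In controls Shmt1 made up 79.8 of the 119.9 CPM per kilobase of the cytosolic sum. Mthfd2 and Shmt2 made up 225.4 and 180.4 of the 454.9 of the mitochondrial sum. Taken by member, the median log2 fold change was -0.58 in the cytosolic and -0.82 in the mitochondrial arm. The cytosolic median is the value of Mthfd1, between Shmt1 at -1.43 and Aldh1l1 at 3.03. Aldh1l1 passed the filter on low counts through the MAX restored libraries alone, so these medians do not rank the arms. The summed level of the 3 cytosolic genes was 58.3, 55.8 and 56.8 CPM per kilobase in MAX restored libraries 1, 2 and 3, against 118, 123 and 120 in controls, 2.11-fold lower. That of the 4 mitochondrial genes was 236, 251 and 235 CPM per kilobase in MAX restored libraries, against 448, 473 and 444 in controls, 1.89-fold lower. The mitochondrial genes made up 80.9% ± 0.845 of the sum of both arms with MAX restored and 79.1% ± 0.307 in controls (SD, n = 3 each). The shares did not overlap, but they moved by 1.72 percentage points only, and by 1.10 points on CPM sums with no length correction. The serine synthesis genes summed to 132 ± 3.4 CPM per kilobase with MAX restored and 247 ± 8.54 in controls, 1.87-fold lower.

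Single enzyme pairs shifted more than the sums, and in both directions. The log2 ratio of Shmt1 to Shmt2 was -1.57, -1.63 and -1.56 in MAX restored libraries, against -1.18, -1.23 and -1.12 in controls, so the cytosolic enzyme lost more (difference -0.41). Per kilobase, Shmt2 made up 75.02% ± 0.526 of the Shmt1 and Shmt2 transcripts with MAX restored and 69.3% ± 0.863 in controls. The ratio of Mthfd1 to Mthfd1l was 1.31, 1.11 and 1.18 with MAX restored, against 1.43, 1.65 and 1.51 in controls, again a larger loss of the cytosolic enzyme (difference -0.33). The ratio of Mthfd1 to Mthfd2 went the other way, at -2.05, -2.28 and -2.11 with MAX restored, against -2.53, -2.45 and -2.49 in controls (difference 0.35).

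The ratio of Aldh1l1 to Aldh1l2 was higher by 4.00 with MAX restored (-5.29 ± 0.230) than in controls (-9.28 ± 1.66). It rests on few Aldh1l1 counts, with 0.5 counts added to both genes because control 3 had none. Aldh1l1 passed the filter on low counts through the MAX restored libraries alone, so its ratio to Aldh1l2 was bound to differ. Within the mitochondrial arm, the ratio of Mthfd1l to Mthfd2 was -3.35 ± 0.053 with MAX restored and -4.02 ± 0.075 in controls (SD, n = 3 each), a pair chosen after the fold changes were seen. For these 5 ratios the groups did not overlap, and each gave p = 0.1 in a two-sided exact permutation test, the smallest that 3 against 3 libraries can give, so none could pass 0.05. Adjusted over the 7 pairs compared, p was 0.117.

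**Figure D3:**
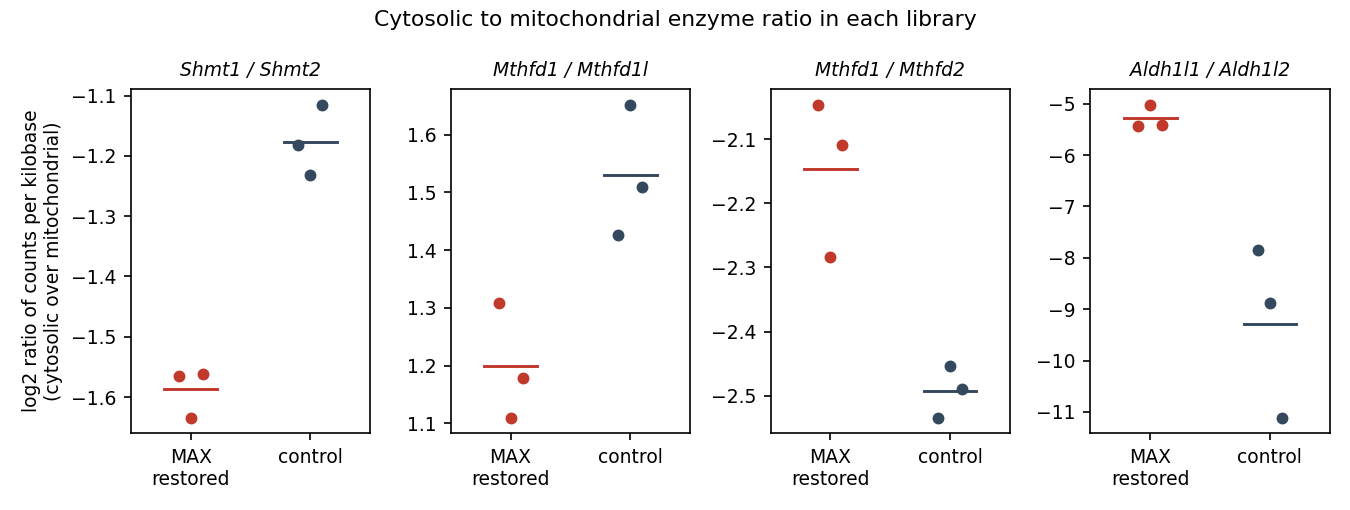
Log2 ratio of counts per kilobase, cytosolic over mitochondrial enzyme, in each library, for Shmt1 over Shmt2, Mthfd1 over Mthfd1l, Mthfd1 over Mthfd2 and Aldh1l1 over Aldh1l2. Points are libraries, bars are group means, and each panel has its own vertical scale. With MAX restored the first 2 ratios are lower by 0.41 and 0.33, and the others are higher by 0.35 and 4.00.

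Around the 10 enzymes, 35 other genes of serine, glycine and folate metabolism were followed, of which 26 had enough counts to be tested. Of these, 10 were called lower, 4 higher and 12 neither, where 32.3% of all tested genes were called lower and 31.2% higher, and their median log2 fold change was -0.12. By at least 1.5-fold, 4 of the 26 fell, where 8.1% of all tested genes did so. The counts of the single lists, each of 7 tested genes or fewer, are given as descriptions to be read against the same shares. The lists were written with earlier results of these data known.

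Carriers were lower in 5 of 7, with none called higher and a median log2 fold change of -0.16, where 32.3% of all tested genes were called lower. The neutral amino acid exchanger gene Slc1a5 had 99.9, 93.2 and 91.0 CPM in MAX restored libraries, against 193, 193 and 194 CPM in controls (log2 -1.03, SE 0.05, adjusted p = 5.37e-13, edgeR). Its close relative Slc1a4, which carries serine, fell 1.63-fold, and the glycine transporter gene Slc6a9 fell 1.29-fold. Sfxn1, a carrier of serine into mitochondria, and Slc38a2 fell by log2 values of -0.16 and -0.14. Of 6 tested genes of folate uptake and retention 2 were lower and 4 were not called, a share close to the 32.3% of all tested genes called lower. The reduced folate carrier gene Slc19a1 fell to 22.5 ± 2.31 CPM with MAX restored, against 43.1 ± 2.93 CPM in controls (SD, n = 3 each), and Fpgs, whose enzyme adds the glutamates that keep folate in cells, fell 1.30-fold. Slc25a32, the mitochondrial folate carrier, averaged 30.7 ± 1.18 CPM with MAX restored and 30.5 ± 2.94 in controls, with overlap.

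Of 3 tested genes of folate interconversion, 1 was called higher and 1 lower, close to the shares over all tested genes. Tyms, the thymidylate synthase gene, was higher at log2 0.13, with overlapping groups; the call was lost under 6 of the 14 other settings tried. The mitochondrial formyltransferase gene Mtfmt fell 1.27-fold. In the glycine cleavage system Gcsh fell 1.92-fold and Dld 1.10-fold, and Amt was not called, while Gldc, the glycine decarboxylase gene, had no count in any library. The call for Dld was lost without MAX restored 2 (adjusted p = 0.0785) and without MAX restored 3 (adjusted p = 0.0833, edgeR). Of 5 tested genes that use serine or glycine outside folate metabolism, Srr, the serine racemase gene, was the only one called and was 1.23-fold higher.

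Among the 26 genes around the enzymes, the highest log2 fold changes belonged to Sardh and Pipox, both from the list of choline-derived one-carbon entry and both of sarcosine breakdown. Sardh, the mitochondrial sarcosine dehydrogenase gene, had 26.2, 30.4 and 29.1 CPM in MAX restored libraries, against 2.96, 3.93 and 4.06 CPM in controls (log2 2.96, SE 0.13, adjusted p = 1.00e-13, edgeR). Pipox, encoding a peroxisomal oxidase of pipecolic acid and sarcosine, had 22, 12 and 21 counts in MAX restored libraries, against 4, 1 and 1 in controls. Like Aldh1l1 it passed the filter through the MAX restored libraries alone, and its fitted log2 fold change of 3.00 became 3.93 without control 1, which held 4 of the 6 control counts. The other genes of that list, Chdh, Bhmt and Dmgdh, had too few counts to be tested.

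**Figure D4:**
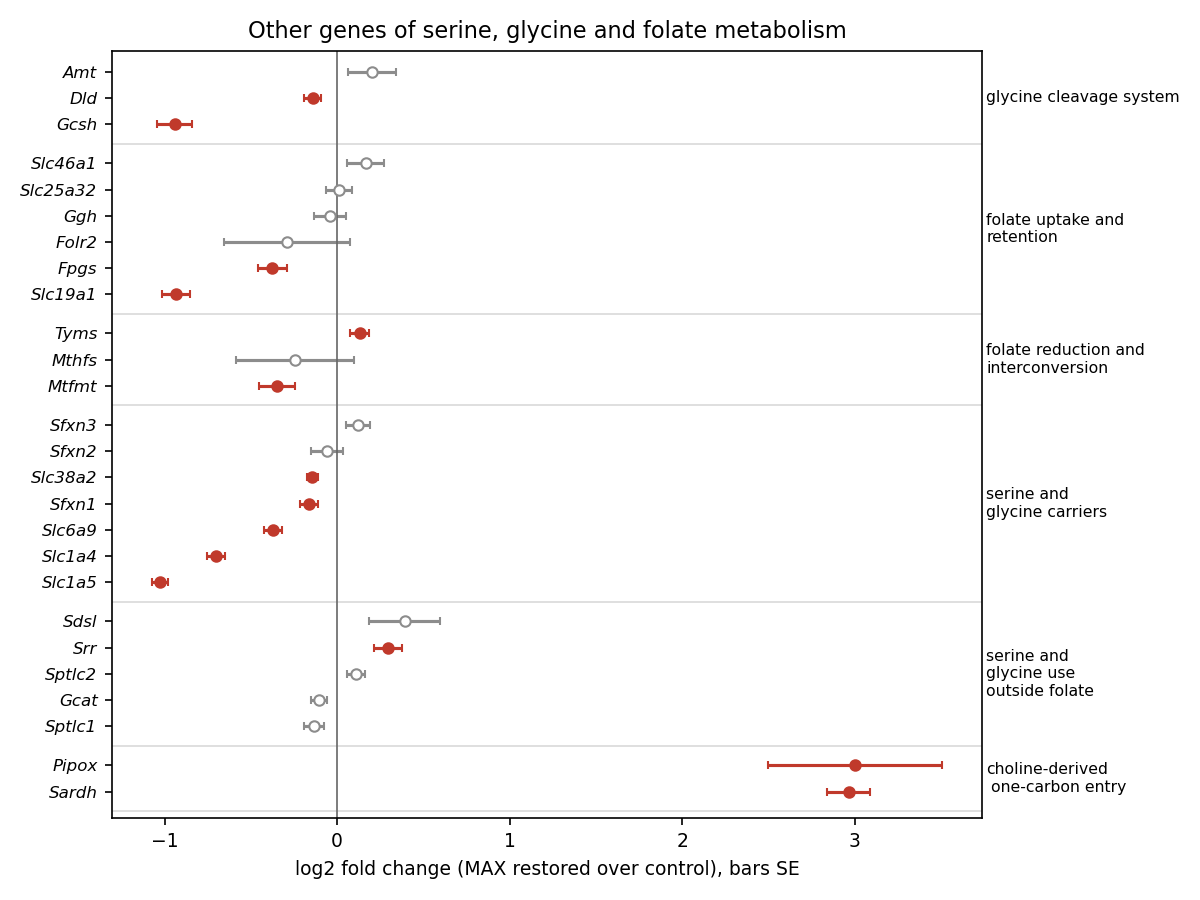
Log2 fold change, MAX restored over control, of the 26 tested genes around the 10 enzymes, grouped by list, with standard errors. Filled points passed an adjusted p of 0.05 and open points did not. Slc1a5 (-1.03), Gcsh (-0.94) and Slc19a1 (-0.93) are the lowest and Sardh (2.96) and Pipox (3.00) the highest.

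Transcripts of the factors named above as regulators moved in opposite directions. Atf4 fell 1.89-fold, at 339 ± 0.772 CPM with MAX restored and 640 ± 16.9 CPM in controls (SD, n = 3 each; log2 -0.92, SE 0.03, adjusted p = 8.52e-15, edgeR). Myc was higher by a log2 fold change of 0.35, Mycl by 1.02 and Mycn by 1.49, and all 3 passed the test. Their part in the changes of the enzyme genes was not tested.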

How the data were processed

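The authors deposited raw counts of reads per gene symbol, 1 file per library, not normalized. Build mm9, the aligner STAR 2.5.2a, bcl2fastq 1.8.4 and featureCounts (Subread 1.6.0) are named in the submitters' processing notes. Per the file headers, reads were counted without strand over UCSC mm9 exons, and the options to count multi-mapping reads or reads shared between genes were not set. Input was 500 ng of total RNA per the labels' protocols. The exon length in bases is also from the deposited files.

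Groups were read from the sample labels. In edgeR 4.0.16, low genes were removed with filterByExpr (minimum count 10) and libraries scaled by TMM before the quasi-likelihood test, group only, two-sided, Benjamini-Hochberg over 12664 genes, threshold 0.05, in R 4.3.3. Standard errors are the absolute log2 fold change over the square root of F. CPM uses TMM-scaled library sizes over the genes kept. Ratios are taken within a library on counts per kilobase and compared by exact permutation over libraries. The members, lists and motifs were chosen with earlier results of these data known. Named genes are all members, Max, Atf4, Myc, Mycl, Mycn, and up to 3 called genes with the largest change per list; Sfxn1, Slc38a2, Slc25a32, Amt, Gldc, Chdh, Bhmt and Dmgdh were added after their values were seen. The marker genes serve to describe the cells. Rb1 and Trp53 were listed for the genotype of the line, which counts summed over a gene cannot check. Alternatives used DESeq2 1.42.0 and limma 3.58.1 (voom), other scalings and filters, a replicate block and each library left out. The fitting code was run on simulated counts with known changes in a small set of genes. Their libraries shared a common spread and none stood apart, so that run checked the code and not the calls made here. Promoter sequence is from RefSeq (GRCm38.p6), another build than that of the files, and no coordinates were carried over. Some genes of the wider pathway are not reported here. A planned comparison of protein sequences was not made here.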

Additional observations from a re-analysis of the deposited data

How the results depend on the processing

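The 9 enzymes called lower kept their direction and their side of the threshold under each of 14 other settings. These were 3 other scalings, 2 other filters, DESeq2, limma voom, the replicate block and each library left out. Aldh1l1 was called higher every time. It had passed the filter on low counts through the MAX restored libraries alone, so its repeated call is no added support. Aldh1l1 varied most, with a log2 fold change between 2.48 and 3.95, since it rests on few counts, and Mthfd1l had log2 fold changes between -0.26 and -0.23. The log2 fold change of the summed cytosolic arm was -1.07 and became -0.97 on CPM sums with no length correction. No ratio changed sign under thinning to the smallest library or leaving out a library. Raw counts cannot change the difference between groups in a ratio, since gene length is the same in every library. The mitochondrial share was higher with MAX restored by between 1.24 and 2.05 percentage points over the left-out libraries and by 1.10 points on CPM sums with no length correction. The difference in the ratio of Mthfd1 to Mthfd1l ranged from -0.38 to -0.27 over the left-out libraries, and that of Aldh1l1 to Aldh1l2 from 3.08 to 4.71. With the replicate number as a block, 3941 genes were called higher and 4093 lower, against 3948 and 4092 without it, and no enzyme call changed. Nothing in the labels says that the replicate numbers pair libraries, so they were not taken as pairs. The deviations of same-numbered libraries from their group means had correlations of 0.005, 0.038 and -0.024 over tested genes. Another scaling moved the median of all genes by at most 0.03 on the log2 scale. A gene with as few counts as Aldh1l1 or Pipox limits what these depths can show of its size of change.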
